A study of Mus musculus with 4 samples.

Results

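The genes described here are the aminoacyl-tRNA synthetases, the enzymes that attach each amino acid to its transfer RNA. They were taken by name from the deposited gene list, which holds 38 of them among 28585 genes: 21 that encode the enzyme of the cytosol and 17 that encode only the enzyme of mitochondria. Their mRNA levels were compared between polymorphonuclear myeloid-derived suppressor cells (PMN-MDSCs, neutrophil-like cells that restrain T cells) of 2 genotypes. By the study's methods, the libraries labelled Dhps cko came from *Dhps* fl/fl pups that also carry Lysm cre, which acts in myeloid cells that express lysozyme M and not in PMN-MDSCs alone. The libraries labelled Dhps flox came from *Dhps* fl/fl littermates. Both groups therefore carry the floxed allele, both are on the C57BL/6J background, and both had 2 libraries of cells from spleen on postnatal day 7. The sort took CD11b+ Ly6G+ cells with low or absent Ly6C, and the study used mice of both sexes. *Dhps* encodes deoxyhypusine synthase, which uses spermidine to make the hypusine residue of the translation factor eIF5A. The labels number the replicates but do not say whether they came from separate pups, so the errors given here measure the spread between these libraries.

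Every cell needs a synthetase for each amino acid, and mitochondria need a second set because they translate their own mRNAs. Most cytosolic and mitochondrial enzymes come from separate nuclear genes, whereas *Gars* (glycine) and *Kars* (lysine) supply both compartments. *Eprs* encodes a single protein that charges both glutamate and proline tRNAs. Synthetases fall into 2 unrelated structural families, class I and class II. A group of cytosolic synthetases is held together with scaffold proteins in the multi-tRNA synthetase complex. The transcription factor ATF4, which is induced when amino acids run short, is known to raise many cytosolic synthetase genes through a composite C/EBP-ATF response element.

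That element is short enough to be read in the promoters. RefSeq promoter windows on GRCm38.p6, each running from 250 bases before to 50 bases after a transcription start, were on hand for 28 of the 38 genes (among those without one were *Cars*, *Hars*, *Hars2*, *Lars*, *Nars*, *Pars2*, *Rars*, *Vars* and *Wars*). The core of the element, TGATGNAA on either strand, was found in the windows of 5 of the 28 genes (17.9%), and in those of 1219 of all 27025 genes with a window (4.51%). All 5 genes, *Aars*, *Gars*, *Iars*, *Tars* and *Yars*, encode cytosolic enzymes, so that 5 of 14 cytosolic and 0 of 14 mitochondrial genes held the letters. They are shown from 150 bases before to 30 bases after the start, 5′ to 3′ on the strand of the gene, with the element in capitals, because they hold the letters through which ATF4 is known to act.
*Aars* (chr8:111033692-111033871, plus strand): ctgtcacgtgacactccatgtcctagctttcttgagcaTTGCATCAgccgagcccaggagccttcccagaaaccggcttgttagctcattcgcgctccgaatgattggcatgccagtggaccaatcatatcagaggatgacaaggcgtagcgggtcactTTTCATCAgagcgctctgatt
*Gars* (chr6:55037851-55038030, plus strand): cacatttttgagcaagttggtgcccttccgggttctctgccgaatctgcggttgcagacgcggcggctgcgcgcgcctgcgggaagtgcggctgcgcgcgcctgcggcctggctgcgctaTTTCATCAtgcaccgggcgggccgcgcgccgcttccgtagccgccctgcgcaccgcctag
*Iars* (chr13:49681980-49682159, plus strand): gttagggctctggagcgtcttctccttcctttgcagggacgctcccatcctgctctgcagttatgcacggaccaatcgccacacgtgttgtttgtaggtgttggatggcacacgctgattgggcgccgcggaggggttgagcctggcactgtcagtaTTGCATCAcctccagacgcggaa
*Tars* (chr15:11399629-11399808, minus strand): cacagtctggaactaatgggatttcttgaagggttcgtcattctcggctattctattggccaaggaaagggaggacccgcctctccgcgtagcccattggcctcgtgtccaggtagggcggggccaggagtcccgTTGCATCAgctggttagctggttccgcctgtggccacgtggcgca
*Yars* (chr4:129189753-129189932, plus strand): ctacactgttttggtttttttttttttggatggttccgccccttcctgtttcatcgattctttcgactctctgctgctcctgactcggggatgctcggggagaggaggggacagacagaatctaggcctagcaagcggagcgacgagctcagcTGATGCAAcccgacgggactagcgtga
With positions counted from the start and negative upstream, the element lay at -112 to -105 and again at 10 to 17 in *Aars*, at -30 to -23 in *Gars*, at 8 to 15 in *Iars*, at -15 to -8 in *Tars* and at 4 to 11 in *Yars*. A further 5 motifs were searched in the same way, and none overlapped the element in these windows. The E-box CACGTG was in 5 of the 28 genes (8.09% of all genes) and the ETS motif CCGGAAGT in 3 (4.31% of all genes). A loose pattern like the interferon-stimulated response element, a pair of GAAA repeats with any 2 bases between them, was in 1 gene, *Qars* (3.99% of all genes), a YY1 motif in 1 gene, *Yars2* (0.755% of all genes), and an NRF1 motif in 0 (1.07% of all genes). These matches describe the letters only, and no binding was measured here.

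The values are FPKM, fragments per kilobase of transcript scaled to the mapped fragments of a library, which allow levels to be compared between genes. The smallest steps between low values put the depth of the 4 libraries at about 29900000 to 31300000 mapped fragments, so that 1 FPKM stands for about 29.9 to 31.3 fragments per kilobase of transcript. *Dhps* itself was at 2.38 and 2.59 FPKM in Dhps cko and 3.57 and 3.11 FPKM in Dhps flox, lower in both Dhps cko libraries but present in all 4 (log2 fold change -0.41, adjusted p = 0.63, limma). *Eif5a*, the substrate of the enzyme, was at 110.9 and 107.5 FPKM in Dhps cko and 98.8 and 108.2 FPKM in Dhps flox (adjusted p = 0.84, limma). All 12 neutrophil markers were detected in every library and summed to 78880 and 81280 FPKM in Dhps cko and 78640 and 74190 FPKM in Dhps flox. Of them 5 were higher in both Dhps cko libraries than in both Dhps flox libraries and 0 were lower, where 20.0% of all genes tested were higher and 16.0% lower in this sense. Of the lists for other cells, none had a marker at 0. B cell markers summed to 61.6 and 64.4 FPKM in Dhps cko and 39.8 and 48.4 FPKM in Dhps flox, with 5 of 5 higher in both Dhps cko libraries (20.0% of all genes tested). Macrophage markers summed to 153.9 and 160.2 FPKM in Dhps cko and 127.6 and 120.9 FPKM in Dhps flox, with 6 of 7 higher in both (again beside 20.0%). T cell markers summed to 15.2 and 12.4 FPKM against 10.1 and 6.81 FPKM, with 3 of 6 higher in both, and erythroid markers to 221.5 and 246.7 FPKM against 172.5 and 273.8 FPKM, with 1 of 5. Early neutrophil markers summed to 81.3 and 54.5 FPKM in Dhps cko and 46.3 and 56.5 FPKM in Dhps flox, with 1 of 5 higher in both. Markers of proliferation summed to 281.0 and 253.5 FPKM against 279.5 and 287.1 FPKM, with 0 of 6 higher and 2 lower in both. The 4 Y-linked genes examined were lower in both Dhps cko libraries and *Xist* was higher, whereas 0 of the 38 synthetase genes lie on X or Y. The part of these differences in the synthetase levels was not tested.

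Single genes differed by more, as given below, but as a sum the synthetase mRNAs stood at similar FPKM in the 2 genotypes. Summed over all 38 genes, they made up 184.2 and 187.3 FPKM in Dhps cko and 186.3 and 186.1 FPKM in Dhps flox. The cytosolic genes summed to 158.2 and 160.1 FPKM in Dhps cko and 160.2 and 159.9 FPKM in Dhps flox, and the mitochondrial genes to 26.0 and 27.3 FPKM against 26.0 and 26.2 FPKM. In these 3 sums of deposited FPKM the Dhps cko libraries did not separate from the Dhps flox libraries. Within the cytosolic genes, the sums of 2 groups did separate, in opposite directions and by little. The 8 genes of the multi-tRNA synthetase complex summed to 75.4 and 77.3 FPKM in Dhps cko and 80.4 and 77.7 FPKM in Dhps flox, and the 13 others to 82.8 and 82.8 FPKM against 79.8 and 82.2 FPKM. These sums were not tested. They were not rescaled between libraries, whose FPKM over all genes summed to 314419 and 319286 in Dhps cko and 315556 and 304281 in Dhps flox. Whether the genotypes separate in such sums depends on that scaling. In bulk RNA, a change in the share of cells that express a gene and a change in the level per cell cannot be told apart.

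**Figure D1:**
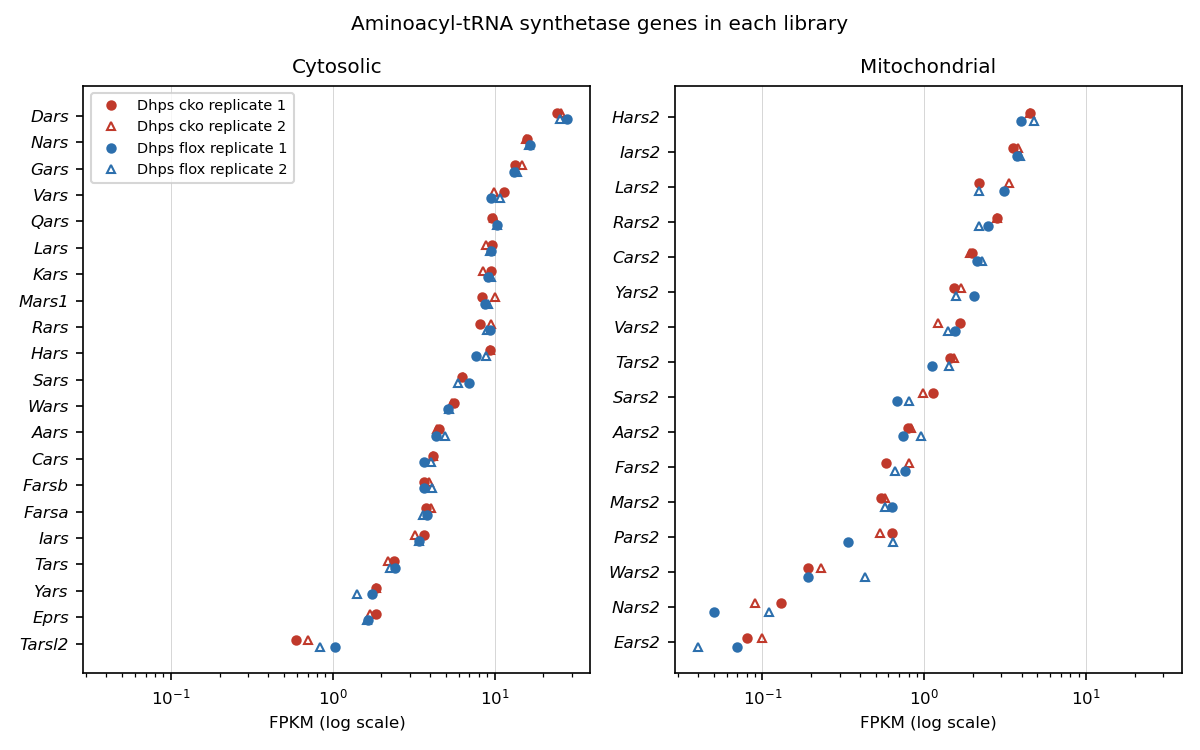
FPKM of the synthetase genes (1 gene is not shown) on a log scale, with 1 point per library (red, Dhps cko; blue, Dhps flox; circle, replicate 1; triangle, replicate 2), cytosolic genes on the left and mitochondrial genes on the right. The points run from *Dars* (24.47 to 28.18 FPKM) down to *Ears2* (0.04 to 0.10 FPKM), and those of *Lars2* (2.18 to 3.34 FPKM) and *Wars2* (0.19 to 0.43 FPKM) are examples of genes whose libraries spread apart.

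The genotype difference of each gene was tested with limma on the scale log2(FPKM + 0.1). Genes averaging under 0.1 FPKM were left out, which kept 17948, and p-values were adjusted over all of them by the Benjamini-Hochberg method. Fold changes on this scale understate those of genes with low FPKM. Of the 38 synthetase genes 36 were tested, and *Nars2* and *Ears2* lay under the minimum. With an adjusted p under 0.05, limma called 0 of the 36 genes, against 0.00557% of all genes tested. With an unadjusted p under 0.05 it also called 0, against 7.0% of all genes tested (4.72% higher and 2.28% lower in Dhps cko). The lowest adjusted p of any synthetase gene was 0.76. The libraries of the 2 genotypes did not overlap for 12 of the 36 genes, 8 higher and 4 lower in Dhps cko, where 36.0% of all genes tested did not overlap (20.0% higher and 16.0% lower). With 2 libraries against 2, an exact permutation test of 1 gene cannot give a p below 0.33.

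The log2 fold changes of the 36 genes ran from -0.48 to 0.46 with a median of -0.02, and 16 were above 0 and 20 below. Over all genes tested the median was 0.01. The median size of the change, whatever its sign, was 0.06 for the synthetase genes and 0.14 for all genes tested. For 33 of the 36 genes the 95% interval of the log2 fold change lay within a 2-fold change in either direction, and for 25 it lay within a 1.5-fold change. Over all genes tested, these bounds held for 11487 and 8129 of 17948 genes. The sets were not matched for level, with a median of 3.066 FPKM for the 38 synthetase genes and 1.835 FPKM for all genes tested. Their median standard errors were 0.12 and 0.19, so the smaller changes and narrower intervals cannot be read as a trait of the synthetase genes. The 3 genes whose intervals reached past 2-fold were *Tarsl2*, *Pars2* and *Wars2*, whose means were under 1 FPKM. For these, a change of such a size was not excluded by the data. The interval of *Sars2*, also with a mean under 1 FPKM, ended at 0.9987 on the log2 scale, just under a 2-fold change. Because this scale understates such genes, a 2-fold change was not clearly excluded for *Sars2* either.

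**Figure D2:**
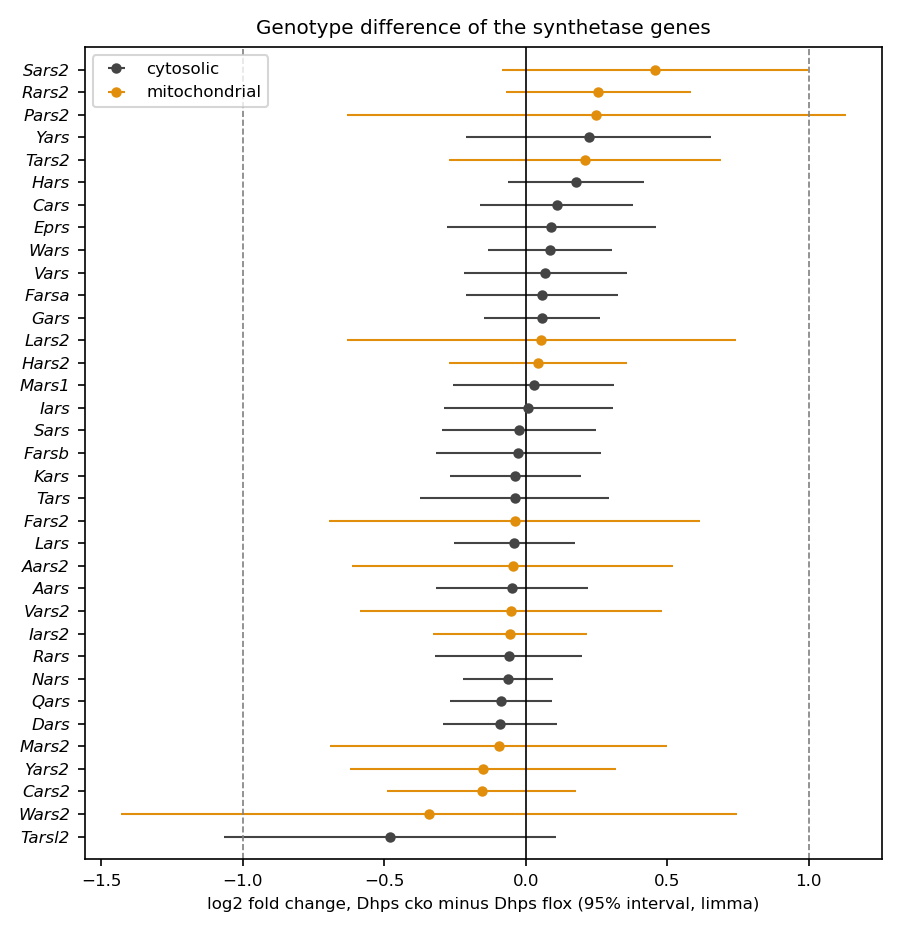
Log2 fold change of Dhps cko over Dhps flox for the synthetase genes tested (1 gene is not shown), ordered by value, with bars for the 95% interval from limma (dark, cytosolic; orange, mitochondrial; dashed lines, 2-fold changes). Every interval shown spans 0, and all but those of *Tarsl2*, *Pars2* and *Wars2* lie between the dashed lines, that of *Sars2* only just.

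The differences between genotypes were of the size of those between replicates. Over the 36 genes, the median absolute log2 difference was 0.11 between the 2 Dhps cko libraries and 0.15 between the 2 Dhps flox libraries. Between a Dhps cko and a Dhps flox library it was 0.096 to 0.12. The gene that differed most between the replicates was *Lars2* in Dhps cko (0.59 on the log2 scale) and *Wars2* in Dhps flox (0.87).

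The 8 synthetases of the multi-tRNA synthetase complex lay close together. Their log2 fold changes ran from -0.09 to 0.09 with a median of -0.04, and the 95% intervals of all 8 lay within a 1.5-fold change. *Dars* (ENSMUSG00000026356), the aspartyl-tRNA synthetase, was the most abundant gene of all 38. It was at 24.47 and 25.61 FPKM in Dhps cko and 28.18 and 25.21 FPKM in Dhps flox, and the groups overlapped. The log2 difference between the genotypes was -0.09 (standard error 0.08, adjusted p = 0.84, limma).

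Below *Dars* came 5 complex members at very similar levels. *Qars* (glutamine) was at 9.63 and 9.93 FPKM in Dhps cko and 10.40 and 10.41 FPKM in Dhps flox. Both Dhps cko values were lower, by 0.09 on average on the log2 scale (95% interval -0.27 to 0.09). *Lars* (leucine), *Kars* (lysine), *Mars1* (methionine) and *Rars* (arginine) lay between 8.17 and 10.0 FPKM in all libraries, with overlapping groups, and their order among themselves did not hold from library to library. *Iars* (isoleucine) was lower, at 3.67 and 3.22 FPKM in Dhps cko and 3.42 and 3.41 FPKM in Dhps flox, and 7.15% of the stretches of 50 bases in its transcripts also occur in the pseudogene *Gm4849*.

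*Eprs* (ENSMUSG00000026615), the glutamyl-prolyl enzyme, was the least abundant synthetase of the complex. It was at 1.84 and 1.69 FPKM in Dhps cko and 1.66 and 1.64 FPKM in Dhps flox. The groups did not overlap but differed by little (log2 fold change 0.09, standard error 0.14, adjusted p = 0.93, limma). For *Kars* the log2 difference was -0.04 (standard error 0.09, adjusted p = 0.96, limma). Among the scaffold genes, *Aimp1* was at 2.97 and 3.55 FPKM in Dhps cko and 3.18 and 2.85 FPKM in Dhps flox, and *Aimp2* was at 3.24 and 3.00 FPKM against 3.28 and 2.74 FPKM. *Eef1e1*, the smallest scaffold, was at 0.82 and 0.93 FPKM in Dhps cko and 0.67 and 0.70 FPKM in Dhps flox, higher in both Dhps cko libraries (log2 fold change 0.31, standard error 0.21, adjusted p = 0.81, limma).

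Outside the complex, the 13 other cytosolic synthetase genes split into 7 with a log2 fold change above 0 and 6 below, around a median of 0.06. *Nars* (ENSMUSG00000024587; asparagine) was at 15.82 and 15.60 FPKM in Dhps cko and 16.47 and 16.35 FPKM in Dhps flox. It was lower in both Dhps cko libraries by a small amount (log2 fold change -0.06, standard error 0.06, adjusted p = 0.86, limma). *Gars* (ENSMUSG00000029777), which serves both compartments, was at 13.39 and 14.76 FPKM in Dhps cko and 13.22 and 13.81 FPKM in Dhps flox, with overlapping groups (log2 fold change 0.06, standard error 0.08, adjusted p = 0.92, limma).

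*Hars* (histidine) was at 9.32 and 9.38 FPKM in Dhps cko and 7.72 and 8.82 FPKM in Dhps flox. It was higher in both Dhps cko libraries, by 0.18 on the log2 scale (standard error 0.09, adjusted p = 0.77, limma). Its 5′ end overlaps that of *Hars2*, its mitochondrial counterpart on the opposite strand, and 7.97% of the exon bases of *Hars* (195 bases) lie in exons of *Hars2*. *Hars2* was at 4.48 and 4.52 FPKM in Dhps cko and 3.98 and 4.78 FPKM in Dhps flox, with overlapping groups. *Wars* (tryptophan), which is also known as a gene induced by interferon-γ, was at 5.63 and 5.45 FPKM in Dhps cko and 5.19 and 5.24 FPKM in Dhps flox. Both Dhps cko values were higher, by 0.09 on the log2 scale (95% interval -0.13 to 0.31, adjusted p = 0.87, limma).

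Phenylalanyl-tRNA synthetase is built from equal numbers of 2 subunits, and the mRNAs of both stood at similar levels. *Farsa*, the catalytic subunit, was at 3.76 and 4.02 FPKM in Dhps cko and 3.84 and 3.63 FPKM in Dhps flox. *Farsb*, its partner, was at 3.66 and 3.93 FPKM in Dhps cko and 3.65 and 4.09 FPKM in Dhps flox. Their log2 fold changes were 0.06 for *Farsa* (standard error 0.10, adjusted p = 0.95, limma) and -0.03 for *Farsb* (standard error 0.11, adjusted p = 0.98, limma).

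The most negative value of the list belonged to *Tarsl2* (ENSMUSG00000030515; chromosome 7 of GRCm38, 65644898 to 65692091), a paralog of the threonyl-tRNA synthetase *Tars*. It was at 0.59 and 0.70 FPKM in Dhps cko and 1.04 and 0.84 FPKM in Dhps flox. Both Dhps cko values were lower, at 68.6% of the Dhps flox mean, and the difference did not pass the test (log2 fold change -0.48, standard error 0.23, adjusted p = 0.77, limma). With a pseudocount of 1 in place of 0.1 the log2 fold change of *Tarsl2* was -0.24. *Tars* itself, at 2.38 and 2.19 FPKM in Dhps cko and 2.44 and 2.26 FPKM in Dhps flox, had overlapping groups. Of all stretches of 50 bases in the annotated *Tarsl2* transcripts, 1.99% also occur in transcripts of another gene.

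The mRNAs of the mitochondrial enzymes were scarcer and noisier, with a median level of 1.38 FPKM against 6.39 FPKM for the cytosolic genes. Of the 15 tested, 6 had a log2 fold change above 0 and 9 below, around a median of -0.04, and 6 of the 15 intervals lay within a 1.5-fold change, against 19 of 21 for the cytosolic genes. *Sars2* (ENSMUSG00000070699; chromosome 7 of GRCm38, 28741992 to 28753871), the mitochondrial seryl-tRNA synthetase, had the most positive value of the list. It was at 1.14 and 0.98 FPKM in Dhps cko and 0.68 and 0.81 FPKM in Dhps flox. Both Dhps cko values were higher, at 142.3% of the Dhps flox mean, and the difference did not pass the test (log2 fold change 0.46, standard error 0.21, adjusted p = 0.76, limma). For *Sars2* too, a pseudocount of 1 gave a smaller value, 0.24.

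*Rars2* (arginine) was at 2.81 and 2.80 FPKM in Dhps cko and 2.48 and 2.19 FPKM in Dhps flox, higher in both Dhps cko libraries (log2 fold change 0.26, standard error 0.13, adjusted p = 0.77, limma). *Tars2* (threonine) was at 1.44 and 1.52 FPKM against 1.12 and 1.43 FPKM, and *Cars2* (cysteine) went the other way, at 1.98 and 1.93 FPKM against 2.12 and 2.26 FPKM. Both were within the error, with 95% intervals of -0.27 to 0.69 for *Tars2* and -0.49 to 0.18 for *Cars2*. *Iars2* (isoleucine) was at 3.51 and 3.81 FPKM in Dhps cko and 3.73 and 3.88 FPKM in Dhps flox, but 22.9% of its exon bases lie within *Rab3gap2* on the opposite strand. Whether strand was used in the counting is not stated, so reads of such pairs could be exchanged.

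*Lars2* (leucine) varied most between replicates among the genes above 1 FPKM, at 2.19 and 3.34 FPKM in Dhps cko and 3.10 and 2.18 FPKM in Dhps flox. One library of each genotype was high and the other low. The 3 scarcest genes were *Wars2* (tryptophan), *Nars2* (asparagine) and *Ears2* (glutamate). *Wars2* was at 0.19 and 0.23 FPKM in Dhps cko and 0.19 and 0.43 FPKM in Dhps flox, so that its log2 fold change of -0.34 (standard error 0.42, adjusted p = 0.91, limma) rested on 1 Dhps flox library. *Nars2* was at 0.13 and 0.09 FPKM against 0.05 and 0.11 FPKM, and *Ears2* at 0.08 and 0.10 FPKM against 0.07 and 0.04 FPKM. The values of *Ears2* were higher in both Dhps cko libraries and those of *Nars2* overlapped, and at 29.9 to 31.3 fragments per kilobase for each FPKM the values of both genes stand for a few fragments per kilobase. Neither gene passed the minimum for the test.

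Where an amino acid has separate cytosolic and mitochondrial genes, the cytosolic mRNA was in most cases the more abundant. Pairs were made by shared symbol, which left out *Fars2*, *Ears2* and *Pars2*. It also left out *Tarsl2*, which unlike *Tars* was below *Tars2* in all 4 libraries. Of 14 pairs made in this way, 12 had the higher FPKM in the cytosolic gene in all 4 libraries. The ratio of the means ran from 0.919 for *Iars* over *Iars2* to 169.1 for *Nars* over *Nars2*, with a median of 4.51. The highest ratio is imprecise, because it rests on *Nars2* values of 0.05 to 0.13 FPKM that are rounded to 2 decimals. The ratio of *Wars* to *Wars2* ranged from 12.2 to 29.6 in the 4 libraries. In the pairs for isoleucine and tyrosine both genes were at about the same level. The ratios of the 2 genotypes did not overlap for 6 of the 14 pairs, 3 higher and 3 lower in Dhps cko. Higher were *Yars* over *Yars2*, at 1.21 and 1.10 in Dhps cko and 0.863 and 0.892 in Dhps flox, *Cars* over *Cars2*, at 2.096 and 2.15 against 1.72 and 1.79, and *Hars* over *Hars2*, at 2.08 and 2.08 against 1.94 and 1.85. Among the lower ones, *Sars* over *Sars2* was 5.51 and 6.51 in Dhps cko and 10.2 and 7.36 in Dhps flox, and *Rars* over *Rars2* was 2.91 and 3.40 against 3.78 and 4.12. The ratios were not tested, and no share over other pairs of genes was computed to set these counts against.

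**Figure D3:**
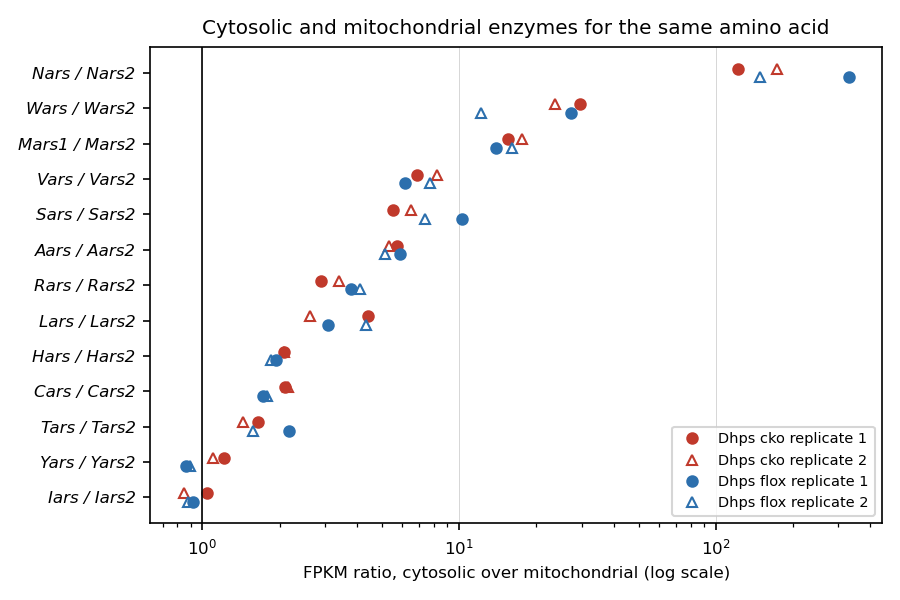
Ratio of the FPKM of the cytosolic gene to that of the mitochondrial gene for the same amino acid on a log scale (1 pair is not shown), with 1 point per library (colours and symbols for genotype and replicate as labelled) and a line at equal levels. The ratio is near 1 for *Iars* over *Iars2* and *Yars* over *Yars2*, exceeds 1 in all libraries for the other pairs shown, and runs from 121.7 to 329.4 for *Nars* over *Nars2*. This last range rests on *Nars2* values of 0.05 to 0.13 FPKM.

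Genes that work with the synthetases were examined beside them. Of 16 such genes, all tested, limma called 0 with an adjusted p under 0.05, and 0 higher and 1 lower in Dhps cko with an unadjusted p under 0.05, where the shares of all genes tested were 7.0% in either direction and 2.28% lower. Of the log2 fold changes 8 were above 0 and 8 below, around a median of -9.4e-05. The 1 gene was *Yrdc*, which takes part in the threonylcarbamoyl modification of tRNAs. It was at 3.48 and 3.58 FPKM in Dhps cko and 4.37 and 4.18 FPKM in Dhps flox, lower in both Dhps cko libraries (log2 fold change -0.27, standard error 0.10, adjusted p = 0.69, limma).

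Mitochondria have no glutaminyl-tRNA synthetase of their own and make glutaminyl-tRNA with an amidotransferase of 3 subunits. *Qrsl1* was at 1.23 and 1.22 FPKM in Dhps cko and 1.45 and 1.45 FPKM in Dhps flox, and *Gatb* at 0.60 and 0.32 FPKM against 0.42 and 0.51 FPKM. *Gatc* was at 8.57 and 7.24 FPKM in Dhps cko and 6.30 and 7.06 FPKM in Dhps flox. The subunits thus went in different directions, with *Qrsl1* lower and *Gatc* higher in both Dhps cko libraries and *Gatb* overlapping, and none passed the test (adjusted p = 0.81, 0.77 and 0.99, limma). *Mtfmt*, which formylates the mitochondrial initiator methionyl-tRNA, was at 1.32 and 1.41 FPKM against 1.12 and 1.43 FPKM.

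The amino acid response, through which ATF4 acts on synthetase genes, was examined with 18 genes of that response. *Atf4* mRNA was at 60.24 and 64.14 FPKM in Dhps cko and 66.16 and 64.26 FPKM in Dhps flox, slightly lower in both Dhps cko libraries (log2 fold change -0.07, 95% interval -0.22 to 0.08, adjusted p = 0.84, limma). *Asns*, the asparagine synthetase and a classical target, was at 18.66 and 19.14 FPKM in Dhps cko and 19.16 and 20.04 FPKM in Dhps flox. These were the 2 genes of the 18 that were lower in both Dhps cko libraries, as were 16.0% of all genes tested. The 5 that were higher in both, as were 20.0% of all genes tested, were *Aldh18a1*, *Atf5*, *Nupr1*, *Phgdh* and *Psph*, with log2 fold changes from 0.18 for *Atf5* to 0.59 for *Phgdh* and adjusted p from 0.77 to 0.88 (limma), and they are named here after their values were seen. Over the 18 genes, limma called 0 with an adjusted p under 0.05 and 0 with an unadjusted p under 0.05, where 7.0% of all genes tested had the latter. The median log2 fold change was 0.13, with 14 above 0 (77.8%, beside 52.2% of all genes tested) and 4 below. ATF4 is controlled mainly in its translation, which these libraries do not measure.

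The 5 synthetase genes with the response element in the promoters printed above had a median log2 fold change of 0.01. *Yars* was at 1.85 and 1.86 FPKM in Dhps cko and 1.76 and 1.41 FPKM in Dhps flox, higher in both Dhps cko libraries (log2 fold change 0.22, standard error 0.17, adjusted p = 0.82, limma). *Aars*, with 2 copies of the element, was at 4.51 and 4.44 FPKM in Dhps cko and 4.37 and 4.91 FPKM in Dhps flox, with overlapping groups, and 14.3% of its exon bases are shared with *Exosc6* on the same strand. The groups also overlapped for *Gars*, *Iars* and *Tars*.

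**Figure D4:**
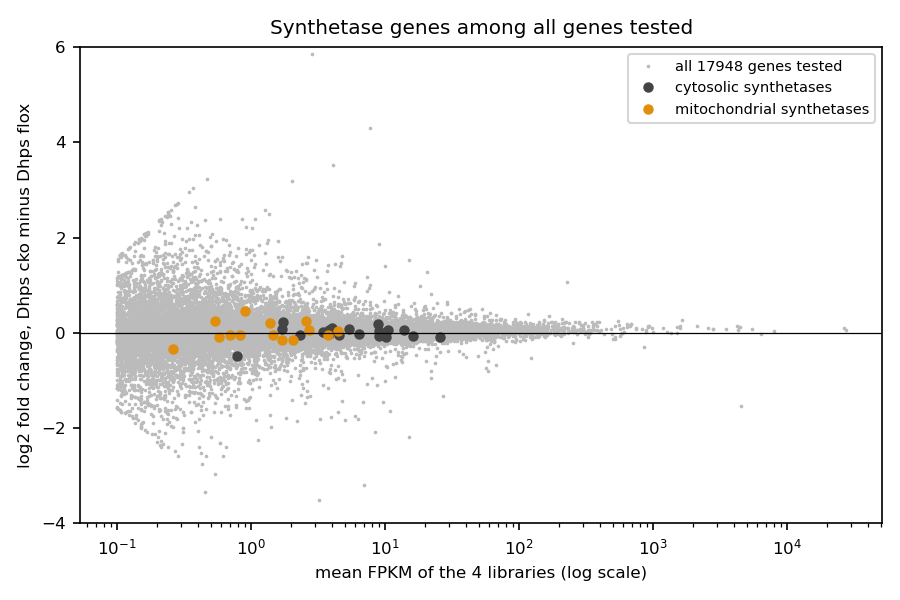
Log2 fold change of Dhps cko over Dhps flox against the mean FPKM of the 4 libraries (log scale) for all 17948 genes tested (grey), with cytosolic (dark) and mitochondrial (orange) synthetase genes marked (1 gene is not marked). The synthetase genes lie between -0.48 and 0.46, inside the cloud of genes of the same level.

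Values also moved with the length of the annotated exons. When the 10622 genes of 1 FPKM or more with a known length were cut into 5 groups of like number, the median log2 fold change went from 0.09 in the group of shortest genes to -0.06 in that of the longest. The synthetase genes had a median of 5233.5 exon bases, and the 29 at this level fell into the groups from shortest to longest as 0, 3, 10, 11 and 5 genes. Their median log2 fold changes in the last 4 groups were 0.18, -0.0039, -0.02 and -0.05, and those of all genes there 0.06, 0.03, -0.02 and -0.06. The part of length in the values of single genes was not tested.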

How the data were processed

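Bulk RNA sequencing of PMN-MDSCs from spleens of pups on postnatal day 7 was analysed in 4 libraries, 2 labelled Dhps cko and 2 labelled Dhps flox. The authors filtered reads with Cutadapt, aligned them with HISAT2 (mm10 in the submitters' processing notes) and calculated FPKM per gene with StringTie and ballgown, and the deposited FPKM are rounded to 2 decimals. The annotation, the use of strand and any scaling between libraries are not given in the sources used here. Synthetase genes were selected by symbol, and 1 of them is counted but not reported here singly. The members and lists were chosen with earlier results of these data known.

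Deposited FPKM were put on the scale log2(FPKM + 0.1). The 17948 genes averaging 0.1 FPKM or more were tested for a genotype difference in R 4.3.3 with limma 3.58.1 (lmFit, eBayes with a mean-variance trend, two-sided, no replicate block), with Benjamini-Hochberg adjustment over all genes and a threshold of 0.05. The 95% intervals are those of limma, are not adjusted, and share the spread across genes. The comparison was tested on simulated data. Full statistics were given for the 3 most and the 3 least abundant members, *Eprs*, *Gars*, *Kars*, *Farsa*, *Farsb*, *Wars*, and members with an unadjusted p under 0.05 or non-overlapping groups at least 1.25-fold apart, except *Nars2* and *Ears2*, which were under the minimum and not tested. Statistics of the other members were added after their values were seen. Positions, exon lengths, overlaps and shared stretches of 50 bases came from GENCODE M21 (GRCm38), which holds 28511 of the gene identifiers and lacks 74. The promoter motifs were chosen after the data were seen. Depth was approximated from the steps of low FPKM of single-exon genes. The step was chosen for the highest share of values close to its multiples, which was 40.9% to 42.7%. At a single fixed step 30% would be close by chance, and the chance share for a chosen step was not computed. Read counts could therefore not be recovered, and no test on counts was run. Figures and summaries used Python 3.11.15, pandas 2.3.3, numpy 2.4.6 and matplotlib 3.10.9.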

Additional observations from a re-analysis of the deposited data

How the results depend on the processing

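No synthetase gene had an adjusted p under 0.05 with limma under the main setting or any of the 14 alternatives, where the lowest adjusted p was 0.54. With an unadjusted p under 0.05, limma called 1 gene, *Sars2*, with no mean-variance trend and 1 gene, *Hars*, without Dhps flox replicate 2 (range 0 to 1 with each library left out). Over all genes limma called 1 at an adjusted p under 0.05, which became 0 with a pseudocount of 0.01, 0 without a filter on low values, 4 among genes averaging 1 FPKM or more, 2 with quantile normalization, 2 with a robust trend and 0 without any one library. The replicate numbers did not pair the libraries (deviations from the group means of same-numbered libraries had a correlation of -0.057), and with the replicate number as a block the number of genes called was 0 and that of synthetase genes 0.

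The median log2 fold change of the synthetase genes moved to -0.019 with a pseudocount of 1, -0.056 with TPM scaling, -0.037 with size factors and -0.041 with quantile normalization, and ran from -0.015 to 0.012 without single libraries. That of the cytosolic genes moved to -0.0072 among genes averaging 1 FPKM or more, -0.055 with TPM scaling and -0.036 with size factors, and ran from -0.012 to 0.017 without single libraries, and that of the mitochondrial genes ran from -0.078 to 0.012. The latter was -0.017 with a pseudocount of 1, -0.022 among genes averaging 1 FPKM or more and without a filter, -0.068 with TPM scaling and -0.061 with quantile normalization. TPM scaling gave *Mars1* a log2 fold change of -0.0033 and *Iars* one of -0.022, below 0, as did size factors (-0.0029) and quantile normalization (-0.0066) for *Iars*. Without single libraries, these synthetase and related genes were among those that changed sign, over the ranges of log2 fold change given: *Aars* -0.13 to 0.033, *Aars2* -0.21 to 0.12, *Aimp1* -0.019 to 0.23, *Aimp2* -0.071 to 0.18, *Fars2* -0.25 to 0.17, *Farsb* -0.11 to 0.054, *Gars* -0.013 to 0.13, *Gatb* -0.42 to 0.31, *Hars2* -0.085 to 0.17, *Iars* -0.082 to 0.10, *Iars2* -0.11 to 0.0021, *Kars* -0.12 to 0.045, *Lars* -0.11 to 0.030, *Lars2* -0.24 to 0.35, *Mars1* -0.10 to 0.16, *Mtfmt* -0.063 to 0.26, *Pars2* -0.13 to 0.62, *Rars* -0.17 to 0.049, *Sars* -0.13 to 0.085, *Tars* -0.096 to 0.019, *Vars* -0.033 to 0.17, *Vars2* -0.27 to 0.17, *Wars2* -0.78 to 0.093, *Yars2* -0.33 to 0.024. Of the 36 genes tested, 15 kept 1 sign under all alternatives that tested them, *Sars2*, *Rars2*, *Hars*, *Yars* and *Tarsl2* among them. Among genes that kept their sign, values moved by over 1.5 times without single libraries for *Hars* (0.083 to 0.27), *Yars* (0.072 to 0.37), *Rars2* (0.17 to 0.34), *Dars* (-0.17 to -0.010), *Eprs* (0.033 to 0.15), *Farsa* (0.0099 to 0.10), *Gatc* (0.12 to 0.36) and *Atf4* (-0.11 to -0.024). The same held for *Tars2* (0.046 to 0.37), *Cars* (0.038 to 0.18), *Mars2* (-0.16 to -0.033), *Asns* (-0.084 to -0.020) and *Eif5a* (0.013 to 0.14). A pseudocount of 1 gave *Sars2* 0.24 and *Tarsl2* -0.24. In a fit with 1 library in a group, that library is assumed to vary like the others. The intervals of *Tarsl2*, *Pars2* and *Wars2*, with means under 1 FPKM, reached past a 2-fold change, and that of *Sars2* ended just under it.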
